A study of Mus musculus with 13 samples.

Results

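The genes described here build the acrosome, the enzyme-filled cap of the sperm head, or carry out the binding and fusion of sperm and egg. The list was given by gene symbol, and all 39 of its 39 members were found among the 30479 genes of the deposited table. They were grouped by known role: 11 genes of acrosome biogenesis, 9 of the acrosomal matrix and its hydrolases, 2 of binding to the zona pellucida, 5 of sperm-egg fusion, 8 Izumo paralogs and other acrosomal proteins, 3 lysozyme-like proteins and 1 egg activation factor. The group of 8 is called the membrane group below as a short label. The label does not mean that each member is a membrane protein, and Crisp2, for example, is a secretory protein.

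The acrosome is assembled in round spermatids, the haploid cells that follow meiosis, from vesicles that leave the Golgi apparatus and spread over the nucleus. When a sperm reaches the egg coat, the zona pellucida, the acrosome releases its proteases and hyaluronidases and exposes membrane proteins such as IZUMO1, which binds JUNO on the egg. The genes for these proteins are switched on mostly after meiosis, in part through the transcription factor CREM, which binds the cAMP response element.

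RNA was measured in mice of postnatal day 25 with 3 genotypes at Wfdc15a, a gene of the WAP four-disulfide core family, which includes protease inhibitors. There were 3 knockout (KO) libraries of sorted round spermatids, 2 from heterozygotes (Het) and 2 from the wild type (WT), each from 100 to 200 cells gated by DNA content with the dye Vybrant DyeCycle Green. Whole testis without its capsule gave 3 KO, 1 Het and 2 WT libraries, each from 2 ng of total RNA. All libraries were made by Smart-seq2, which copies whole polyadenylated transcripts and records no strand. The labels do not describe the Wfdc15a allele nor whether each library had its own animal, so the p-values measure only how far these samples scatter, in part perhaps technically. A level is given as RPM, a read count scaled to the total of its library, and a difference is given on the log2(RPM + 1) scale, which understates changes of low genes. A gene is said to have risen or fallen where limma's linear model gave a Benjamini-Hochberg adjusted p under 0.05 over all genes tested.

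Wfdc15a itself was at 97.9, 67.4 and 48.1 RPM in KO spermatids, 65.0 and 71.5 RPM in Het spermatids, against 267 and 234 RPM in WT spermatids. The testis levels of Wfdc15a were 116, 36.8 and 44.3 RPM in KO, 48.4 RPM in Het, against 212 and 207 RPM in WT. All 6 KO libraries thus held Wfdc15a reads, below WT and overlapping Het in spermatids. Library totals ran from 10825690 to 20927428 reads in spermatids and from 7375270 to 18438704 in testis. The first principal component over all genes tested, with 55.6% of the variance in spermatids and 71.6% in testis, divided the libraries the same way in both. WT replicates 1 and 2 and KO replicate 1 lay on one side (set 1), and the Het libraries and KO replicates 2 and 3 on the other (set 2). The labels record no batch, so set and genotype cannot be told apart for WT and Het, and KO is the 1 genotype in both sets. Summed Sertoli cell markers were at 144 to 335 RPM in set 2 spermatids and 14.9 to 22.2 RPM in set 1 spermatids, and at 2269 to 2563 RPM in set 2 testis and 56.5 to 99.1 RPM in set 1 testis. Stromal and peritubular myoid markers differed likewise, at 578 to 1295 RPM in set 2 spermatids and 7.98 to 17.7 RPM in set 1 spermatids. Leydig cell markers overlapped in spermatids, at 66.2 to 118 RPM in set 2 and 61.7 to 84.2 RPM in set 1. In testis the Leydig cell markers differed, at 642 to 887 RPM in set 2 and 164 to 206 RPM in set 1. Germ cell markers differed too. Meiotic spermatocyte markers were at 1908 to 2088 RPM in set 2 spermatids and 1281 to 1456 RPM in set 1 spermatids. In testis they were at 3267 to 3554 RPM in set 2 and 1083 to 1455 RPM in set 1. The sorted cells were checked against 19 round spermatid markers, whose sum was 7427 to 7545 RPM in WT spermatids and 5966 to 8409 RPM in WT testis. In WT the sum in the sorted cells thus lay inside the range of whole testis, and 4 of the 19 markers were higher in WT spermatids. In set 2 the sum was 6561 to 7196 RPM in spermatids and 3615 to 3741 RPM in testis, without overlap. In set 1, KO replicate 1 included, it was 7427 to 8332 RPM in spermatids and 5341 to 8409 RPM in testis.

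Promoters from RefSeq on build GRCm38.p6, each 250 bases before to 50 bases after a transcription start, were matched by symbol for 34 of the 39 members. They were searched on both strands for the cAMP response element, as the full site TGACGTCA and as its short form TGACG, which lies inside the full site. The short form was present in 11 of the 34 matched members, or 32.35%, against 21.02% of all 27025 promoters. The full site was present in 1 of the 34, Izumo1, and in 1.876% of all promoters. Promoters of 4 members are shown: Spaca1, Spam1 and Zan, whose KO minus WT difference itself differed between cell types, and Izumo1, which holds the full site. Capitals mark the short form or, in Izumo1, the full site.
Spaca1 (chr4:34050016-34050315, minus strand): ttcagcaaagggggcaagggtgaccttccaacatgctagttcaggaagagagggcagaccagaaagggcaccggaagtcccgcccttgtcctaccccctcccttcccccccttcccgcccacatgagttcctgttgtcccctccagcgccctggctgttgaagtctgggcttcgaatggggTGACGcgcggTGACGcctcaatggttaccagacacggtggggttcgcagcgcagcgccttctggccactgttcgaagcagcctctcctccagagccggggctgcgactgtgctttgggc
Spam1 (chr6:24790938-24791237, plus strand): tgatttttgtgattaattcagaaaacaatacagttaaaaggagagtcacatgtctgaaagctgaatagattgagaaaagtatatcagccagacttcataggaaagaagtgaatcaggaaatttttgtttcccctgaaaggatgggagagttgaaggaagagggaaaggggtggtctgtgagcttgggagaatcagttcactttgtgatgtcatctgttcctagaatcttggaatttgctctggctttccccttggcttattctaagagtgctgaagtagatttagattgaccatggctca
Zan (chr5:137477015-137477314, minus strand): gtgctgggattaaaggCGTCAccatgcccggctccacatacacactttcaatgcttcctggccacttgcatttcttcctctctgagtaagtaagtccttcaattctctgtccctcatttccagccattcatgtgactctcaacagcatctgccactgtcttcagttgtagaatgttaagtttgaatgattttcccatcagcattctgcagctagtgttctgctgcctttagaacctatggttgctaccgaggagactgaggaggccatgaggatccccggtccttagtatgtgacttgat
Izumo1 (chr7:45621561-45621860, plus strand): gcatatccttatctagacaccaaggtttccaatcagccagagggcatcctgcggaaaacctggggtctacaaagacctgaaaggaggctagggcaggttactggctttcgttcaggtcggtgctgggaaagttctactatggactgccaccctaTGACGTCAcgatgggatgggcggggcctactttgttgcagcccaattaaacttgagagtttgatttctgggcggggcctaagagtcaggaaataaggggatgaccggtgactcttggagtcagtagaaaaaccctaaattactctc
Spaca1 held 2 short forms in its window, Zan 1 and Spam1 0. Spaca1 had 2 listed promoters, and only the first listed was searched and shown. The counts above likewise used 1 promoter per gene symbol. A match is a description of the letters and was not tested for binding.

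The members together made up 1.02% to 1.30% of the reads of a spermatid library and 0.554% to 1.03% of a testis library. Levels between genes were compared per kilobase of exon. In WT spermatids 36 of the 39 members lay above the median of genes with a read, which was 1.18 RPM per kb, and the median member was at 128.8 RPM per kb. Crisp2, a cysteine-rich secretory protein of the acrosome and tail, was highest at 1244 and 1097 RPM per kb in the WT spermatid libraries. Zpbp2, a matrix protein that helps to compact the acrosome, followed at 682 and 693 RPM per kb. Spaca7, a protein of the acrosomal matrix, came next at 405 and 330 RPM per kb. Each of the first 2 lay above its next neighbour in both libraries, whereas Spaca7 overlapped Spaca9 at 341 and 327 RPM per kb. At the low end were Zan at 1.48, Cd46 at 0.538, Gopc at 0.490 and Vps54 at 0.295 RPM per kb, as means of the WT spermatid libraries. Of the 38 pairs of neighbours in this order, 24 overlapped between the libraries. The per-kilobase level depended on the gene model by 2-fold or more in 7 members, Spaca6, Acrv1, Pick1, Gopc, Izumo4, Dcst1 and Izumo1: Spaca6 was at 5.55 RPM per kb over all its exons and at 36.6 RPM per kb over its longest transcript, and Gopc at 0.490 and 1.24 RPM per kb. Without strand, reads could not be divided between members and overlapping genes, which share 29.8% of the exon length of Acrbp (Gm44597), 24.2% of Dcst1 (Gm10702) and 21.9% of Izumo1 (Rasip1).

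**Figure D1:**
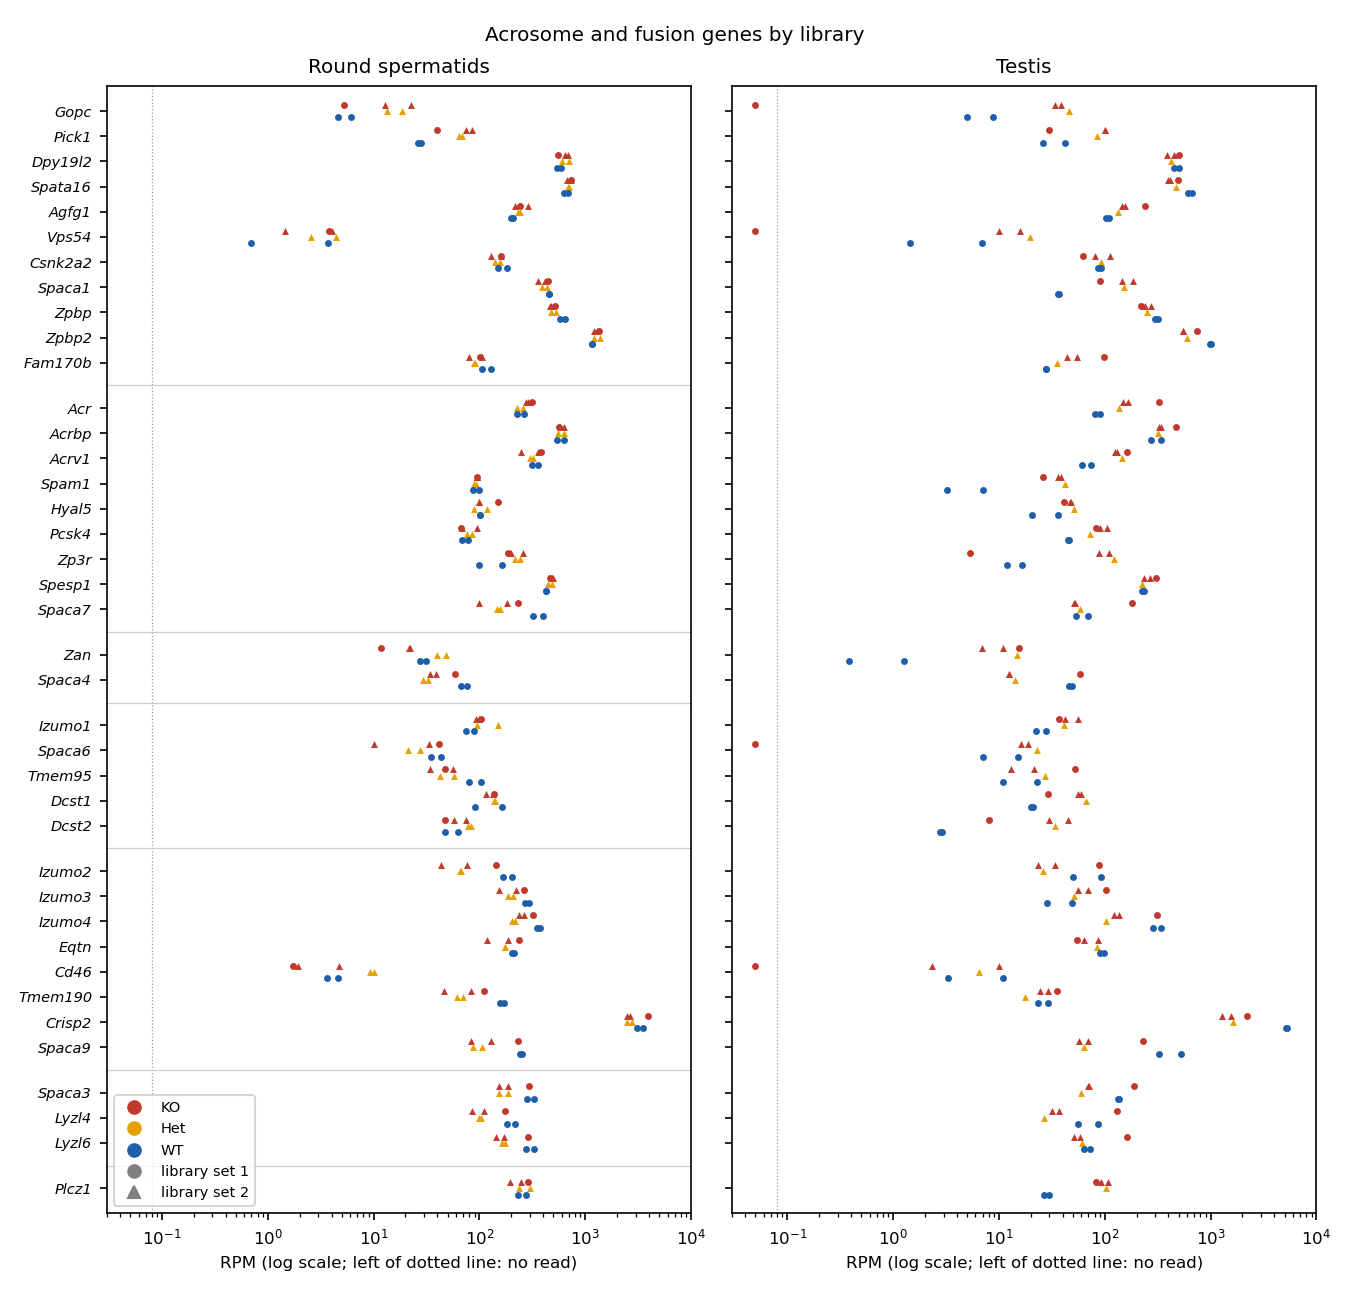
Level of each of the 39 members in RPM on a log scale, in 7 round spermatid libraries (left) and 6 testis libraries (right). Colour gives the genotype (KO, Het, WT from top to bottom within a gene) and shape the library set, and points left of the dotted line had no read, which in testis KO replicate 1 applied to Gopc, Vps54, Spaca6 and Cd46.

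Sorted spermatids were set against whole testis first in WT, where 20 of the 39 members were higher in spermatids and 0 were lower, against 9.09% of 20085 genes tested that were higher and 2.39% that were lower. The median difference of the members was 1.42, and that of all genes tested 0.20. In whole testis, fewer spermatids and less RNA per spermatid cannot be told apart. By role, 7 of 9 members of the matrix and its hydrolases were higher, 4 of 5 of fusion and Plcz1 as the 1 activation factor. Biogenesis had 4 of 11 members higher, zona binding 1 of 2, the Izumo and membrane group 2 of 8 and the lysozyme-like group 1 of 3, and differences between the roles were not tested.

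Among biogenesis genes, Spaca1, an acrosomal membrane protein without which mouse sperm heads are round, was at 451 and 458 RPM in WT spermatids and 37.1 and 36.4 RPM in WT testis. It rose by 3.59 ± 0.31 (log2 difference ± SE, limma adjusted p = 0.000349). Fam170b, an acrosomal protein, was at 105 and 129 RPM in WT spermatids and 27.7 and 28.1 RPM in WT testis (log2 difference 2.03). Zpbp, the zona pellucida binding protein of the matrix, was at 637 and 577 RPM in WT spermatids and 319 and 299 RPM in WT testis (0.97). Agfg1, needed for fusion of acrosomal vesicles, was at 200.2 and 210 RPM in WT spermatids and 103 and 109 RPM in WT testis (0.94). All 4 were separated in every library, but the other 7 biogenesis genes did not pass. Their log2 differences ran from -0.64 (Vps54, a subunit of the retrograde tethering complex of the Golgi) to 0.90 (Csnk2a2, a catalytic subunit of casein kinase 2). Dpy19l2 and Spata16, both linked to round-headed sperm, had differences of 0.24 and 0.03 and were already at 449 to 508 RPM and 618 to 663 RPM in WT testis.

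Of the hydrolases, Spam1, the sperm surface hyaluronidase PH-20, was at 99.0 and 87.1 RPM in WT spermatids and 3.25 and 7.10 RPM in WT testis. Its log2 difference was 3.999 ± 0.37 (limma adjusted p = 0.00036). Its neighbour on chromosome 6, the hyaluronidase Hyal5, was at 101 and 102 RPM in WT spermatids and 20.3 and 36.0 RPM in WT testis (1.87). Both hyaluronidases thus rose, and Spam1 had the lower level in testis. Acrv1, the intra-acrosomal protein SP-10, was at 354 and 312 RPM in WT spermatids and 74.4 and 60.5 RPM in WT testis (2.29). Spaca7 was at 396 and 323 RPM in WT spermatids and 69.3 and 53.5 RPM in WT testis (2.53). Acr, the protease acrosin, was at 224 and 261 RPM in WT spermatids and 80.5 and 90.8 RPM in WT testis (1.49). Its binding partner Acrbp, which controls proacrosin processing, moved less. Acrbp was at 540.5 and 624 RPM in WT spermatids and 337 and 276 RPM in WT testis (0.93). Spesp1, a protein of the equatorial segment, was at 427 and 430.1 RPM in WT spermatids and 225 and 236 RPM in WT testis (0.89). Zp3r and Pcsk4 had log2 differences of 3.08 and 0.67 and did not pass (limma adjusted p = 0.081 and 0.175).

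Zan encodes zonadhesin, a large protein of the acrosomal matrix that binds the zona in a species-specific way, from 88 exons at chr5:137378637-137477064 of mm10. It was at 31.1 and 27.4 RPM in WT spermatids and 0.380 and 1.27 RPM in WT testis. The testis levels rest on 7 and 20 reads, against 532 and 559 reads in WT spermatids. Its log2 difference of 4.09 ± 0.52 was the largest of the 39 (limma adjusted p = 0.00111). Spaca4, a zona-binding protein of the Ly6 family in mouse, had a difference of 0.60 that did not pass.

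The fusion genes rose except Spaca6. Dcst2 was at 47.4 and 63.2 RPM in WT spermatids and 2.77 and 2.91 RPM in WT testis (log2 difference 3.86). Its partner Dcst1, with which it forms a sperm membrane complex, was at 165 and 91.1 RPM in WT spermatids and 20.1 and 21.03 RPM in WT testis (2.52). The spans of Dcst1 and Dcst2 overlap on chromosome 3 on opposite strands, and both were higher in every WT spermatid library than in either WT testis library. Tmem95 was at 103 and 79.4 RPM in WT spermatids and 10.96 and 23.1 RPM in WT testis (2.43). Izumo1 was at 88.1 and 73.9 RPM in WT spermatids and 22.4 and 28.001 RPM in WT testis (1.65). Spaca6, also required for fusion in mouse, was higher in both spermatid libraries, at 43.6 and 34.8 RPM in WT spermatids and 15.2 and 7.10 RPM in WT testis. Its difference of 1.80 carried an SE of 1.20 and did not pass, and in the same fit the KO testis libraries ran from 0 to 18.8 RPM.

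In the membrane group, Izumo3 was at 292 and 269.5 RPM in WT spermatids and 28.5 and 48.6 RPM in WT testis (log2 difference 2.88). Tmem190 was at 158 and 172 RPM in WT spermatids and 28.9 and 23.6 RPM in WT testis (2.61). Both were higher in each WT spermatid library than in either WT testis library, and Crisp2 and Spaca9 had the opposite order. Crisp2 was at 3506 and 3091 RPM in WT spermatids and 5217 and 5191 RPM in WT testis (-0.66, limma adjusted p = 0.149). Spaca9 was at 255 and 244 RPM in WT spermatids and 524 and 324 RPM in WT testis (-0.72, limma adjusted p = 0.542). These were the lowest values of the 39, and neither passed. Of the lysozyme-like genes, Lyzl6 was at 325 and 277 RPM in WT spermatids and 71.8 and 63.5 RPM in WT testis (2.14). Plcz1, the sperm phospholipase that starts calcium oscillations in the egg, was at 277 and 229.9 RPM in WT spermatids and 26.5 and 29.6 RPM in WT testis. Its log2 difference was 3.13 ± 0.28 (limma adjusted p = 0.000349).

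The count depended on the libraries and on scaling. Leaving out 1 WT library left 10 members without testis replicate 1 (4.11% of all genes), 13 without testis replicate 2 (5.83%), 10 without spermatid replicate 1 (3.39%) and 9 without spermatid replicate 2 (3.37%). Agfg1 also lost its call with a replicate block (limma adjusted p = 0.0594). With each library centred on the median of all genes, 8 members were higher in WT spermatids, against 5.88% of all genes that passed in either direction, namely Spaca1, Spam1, Zp3r, Zan, Dcst1, Dcst2, Izumo3 and Plcz1. Among the set 2 libraries (4 of spermatids and 3 of testis, Het and KO pooled) 30 members were higher in spermatids and 1, Vps54, was lower, against 8.41% of genes higher and 26.4% lower. There the differences were smaller for members that were low in WT testis: Spaca1 had 1.30, Spam1 1.23, Plcz1 1.25 and Dcst2 1.01. Zan had 1.49 and did not pass (limma adjusted p = 0.0943). Crisp2 was higher in set 2 spermatids by 0.80 (limma adjusted p = 0.0134), the opposite direction to WT.

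**Figure D2:**
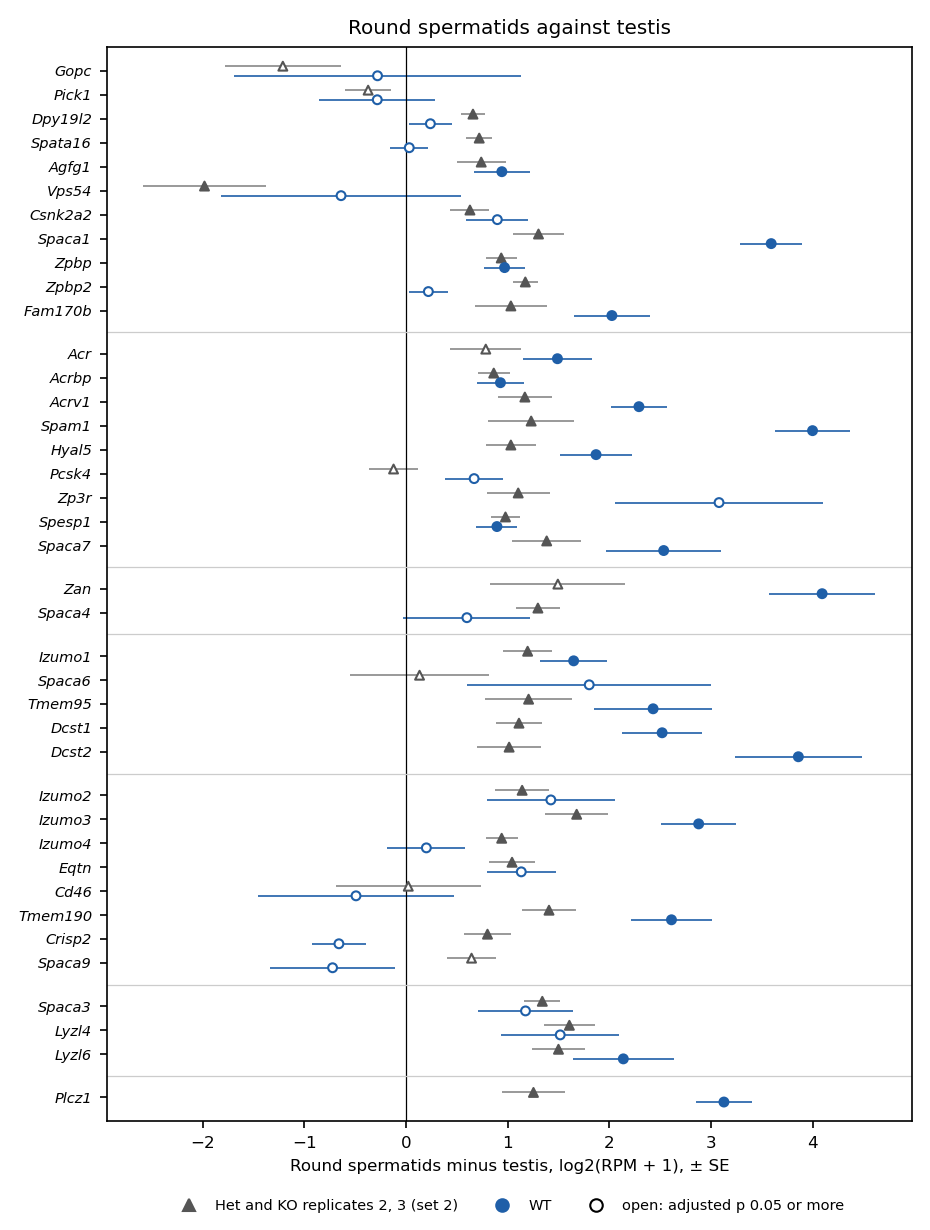
Log2(RPM + 1) difference of round spermatids minus testis for each member, with its standard error, in set 2 libraries (triangles) and in WT libraries (circles). Filled symbols passed an adjusted p under 0.05, as 31 members did in set 2 and 20 in WT, and Spaca1, Spam1, Zan, Dcst2 and Plcz1 lay far to the right in WT but between 1.01 and 1.49 in set 2.

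Other acrosome and fertilisation genes that were not members were counted in the same fit. Of 51 tested, 14 were higher and 2 lower in WT spermatids than in WT testis, with a median difference of 0.80. The 3 with the smallest p were Adam24 with 4.02, Glipr1l1 with 2.099 and Cylc2, a protein of the perinuclear theca, with 3.38. The 2 that were lower were Tex101 with -4.50 and Ly6k with -1.88, surface proteins of germ cells, named here after their values were seen.

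The question of the study, whether loss of Wfdc15a alters spermatogenesis, was asked of these genes by KO against WT in each cell type. In spermatids 0 of the 39 members passed, nor did any of the 18075 genes (0%) by limma, and at an unadjusted p under 0.05 there were 10 members, against 21.1% of all genes. In testis 0 of the 39 passed, nor did any of 18570 genes (0%) by limma, with 11 members at an unadjusted p under 0.05, against 23.6% of all genes. By voom on reads recovered from the deposited values the counts were also 0 in both.

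The 3 largest differences in each direction in KO spermatids, none of which passed, were in the following genes. Izumo2, a testis paralog of Izumo1, was at 145, 77.0 and 43.2 RPM in KO spermatids, 67.3 and 66.1 RPM in Het, against 204 and 168 RPM in WT. Spaca7 was at 234, 184 and 98.3 RPM in KO spermatids, 157 and 146 RPM in Het, against 396 and 323 RPM in WT. Tmem190 was at 110, 82.7 and 46.7 RPM in KO spermatids, 69.3 and 61.4 RPM in Het, against 158 and 172 RPM in WT. In each of these genes all KO libraries lay below both WT libraries, and KO replicate 1 was the nearest to WT. Their log2 differences were -1.22, -1.14 and -1.12 (limma adjusted p = 0.151, 0.131 and 0.134). In the other direction, Pick1, a Golgi protein needed for acrosome formation in mouse, was at 40.0, 75.1 and 84.6 RPM in KO spermatids, 69.1 and 64.8 RPM in Het, against 26.3 and 27.8 RPM in WT. Its interaction partner Gopc was at 5.26, 12.8 and 22.6 RPM in KO spermatids, 13.3 and 18.5 RPM in Het, against 4.61 and 6.13 RPM in WT. Zp3r, the zona receptor sp56 of mouse, was at 185, 258 and 197 RPM in KO spermatids, 219 and 242 RPM in Het, against 164 and 98.1 RPM in WT. KO and WT overlapped for Gopc and not for Pick1 or Zp3r, and the differences were 1.20 for Pick1, 1.001 for Gopc and 0.73 for Zp3r (limma adjusted p = 0.13, 0.293 and 0.156).

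The counts changed with the KO libraries kept and with their weights. Without KO replicate 1 the comparison is set 2 KO libraries against set 1 WT libraries, in which set and genotype cannot be told apart. There KO replicates 2 and 3 differed from WT in 16 members in spermatids, against 30.8% of all genes, and in 25 members in testis, against 65.2% of all genes. With KO replicate 1 as the 1 KO library, which is assumed to vary like the other groups, 0 members passed in spermatids, against 0.429% of all genes, and 12 in testis, against 21.5% of all genes. With all KO libraries kept and library quality weights, 15 members passed in spermatids, against 5706 of 18075 genes. In testis 27 members passed with these weights, against 12535 of 18570 genes.

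The 3 largest positive differences in KO testis were in genes that were low in WT testis. Zan was at 15.5, 10.9 and 6.90 RPM in KO testis, 14.7 RPM in Het, against 0.380 and 1.27 RPM in WT testis. Dcst2 was at 7.9997, 44.8 and 29.4 RPM in KO testis, 33.7 RPM in Het, against 2.77 and 2.91 RPM in WT. Spam1 was at 26.0, 38.8 and 36.3 RPM in KO testis, 42.2 RPM in Het, against 3.25 and 7.10 RPM in WT. KO did not overlap WT in any of these, and the Het library lay among the KO libraries for Zan and Dcst2 and above them for Spam1. Their log2 differences were 2.71, 2.60 and 2.55 (limma adjusted p = 0.108, 0.139 and 0.079). Of the 3 with the most negative differences, Spaca9 was at 232, 69.4 and 57.3 RPM in KO testis, 63.8 RPM in Het, against 524 and 324 RPM in WT. Crisp2 was at 2190, 1553 and 1292 RPM in KO testis, 1612 RPM in Het, against 5217 and 5191 RPM in WT. Spaca4 was at 58.3, 12.5 and 12.5 RPM in KO testis, 14.1 RPM in Het, against 48.8 and 45.7 RPM in WT. KO replicate 1 lay above both WT libraries for Spaca4 and below them for the others, and the log2 differences were -2.07 for Spaca9, -1.67 for Crisp2 and -1.13 for Spaca4 (limma adjusted p = 0.132, 0.071 and 0.397). The median of all genes was itself higher in KO testis, by 0.63, and that of the members by 0.36, so relative to all genes the difference was 2.08 for Zan and -2.70 for Spaca9. With centred libraries the median of the members was -0.58 in KO testis, below WT.

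Het was compared with WT on the same scale, with all Het libraries in set 2 and all WT libraries in set 1. In spermatids 0 of the 39 members passed, as did 0% of genes by limma, with 13 members at an unadjusted p under 0.05 against 25.1% of all genes. In testis, with 1 Het library, 0 members passed, as did 0% of genes by limma, with 10 members at an unadjusted p under 0.05 against 19.8% of all genes.

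The difference between the library sets could be read in 2 ways without a shared library, as Het minus WT and as KO replicates 2 and 3 minus KO replicate 1. Because the sets were found from the same libraries, the values are a description with no test. In spermatids 31 of the 39 members had the same sign in both readings, against 75.9% of all genes, and the readings followed each other across the 39 genes with Spearman's rho of 0.84, against 0.65 across all 18075 genes. Members are not independent replicates, and both readings share the length of the transcript. Het minus WT rose with the length of the longest transcript across the 39 members (rho 0.78) more than across all genes with a length (rho 0.33). The 9 members with a longest transcript under 1000 bases, Spaca7, Spaca4, Tmem95, Izumo2, Tmem190, Spaca9, Spaca3, Lyzl4 and Lyzl6, were all lower in Het than in WT and all lower in KO replicates 2 and 3 than in KO replicate 1. Their medians were -1.20 and -0.82. Of all 18075 genes tested in spermatids, 7017 were lower in Het than in WT. Short genes outside the members were not counted in either cell type, so the 9 cannot be set against a share of short genes. The 19 members over 2000 bases had medians of 0.19 and 0.05. In testis 29 of the 39 members (74.4%) had the same sign, against 76.2% of all genes, with rho of 0.65 across members and 0.59 across all genes. The rho of Het minus WT with transcript length in testis was 0.42 across members and 0.43 across all genes. For KO replicates 2 and 3 minus KO replicate 1 in testis, it was 0.57 across members and 0.24 across all genes. The members were thus close to all genes in the first reading only. Of the 9 short members in testis, 8 were lower in Het and 9 were lower in KO replicates 2 and 3. Their testis medians were -1.18 and -1.60. Of all 18570 genes tested in testis, 5041 were lower in Het than in WT. All 3 lysozyme-like genes are among the short 9, as are Izumo2, Tmem190 and Spaca9 of the membrane group. In that group 8 of 8 KO minus WT differences in spermatids were below 0 without passing, against 8677 of all 18075 genes. For Het minus WT in spermatids it was 7 of 8. In the comparison within sets given below it was 5 of 8, with a median of -0.05. The part of transcript length and of the markers of other cells in these differences was not tested.

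**Figure D3:**
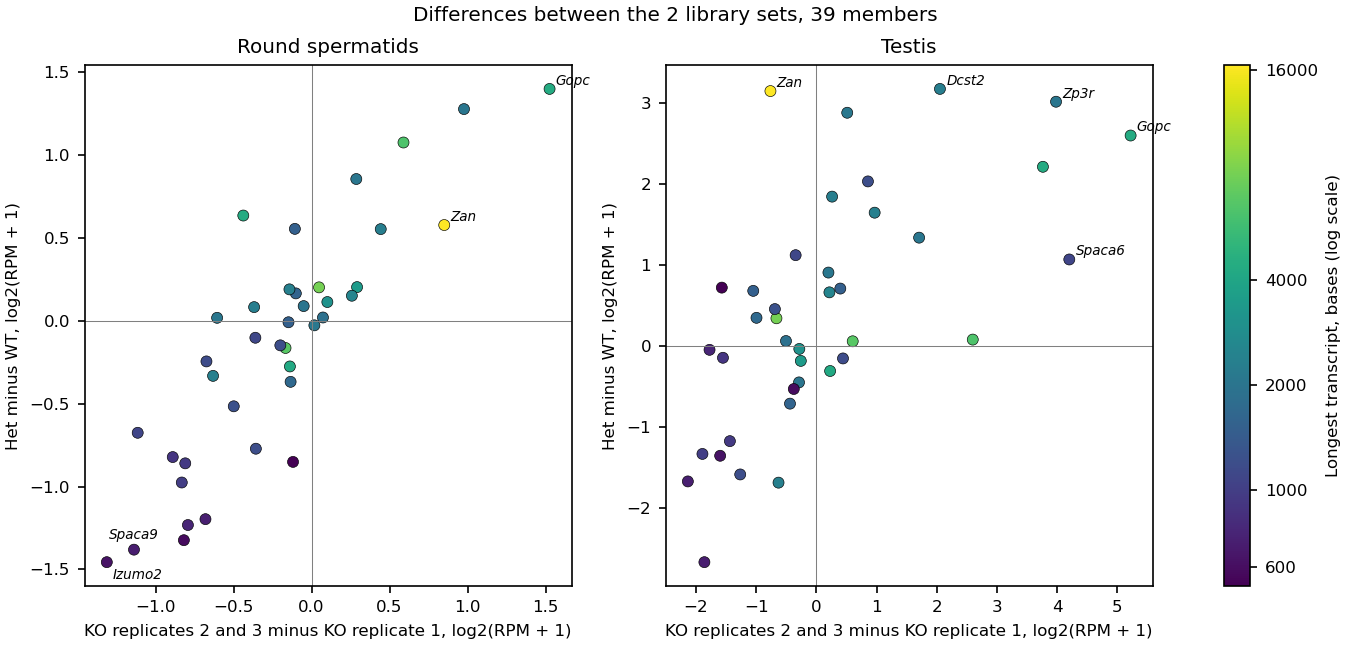
Het minus WT (vertical) against KO replicates 2 and 3 minus KO replicate 1 (horizontal) for the 39 members, both as log2(RPM + 1) differences, in spermatids (left) and testis (right). Colour gives the longest transcript in bases, and in spermatids the short genes gather at the lower left, with Izumo2 at -1.46 vertically and -1.31 horizontally, and Gopc at the other end at 1.40 and 1.53.

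KO was therefore also compared with WT and Het inside the sets, that is KO replicate 1 with WT and KO replicates 2 and 3 with Het, by adding the set to the fit. In spermatids 1 of the 39 members passed, against 0.382% of 18075 genes (0.0221% higher and 0.36% lower). This was Zan, at 11.7, 21.4 and 22.3 RPM in KO spermatids, 48.8 and 39.7 RPM in Het, against 31.1 and 27.4 RPM in WT. The 3 KO libraries were the lowest 3 of the 7, with no overlap, and rest on 244, 365 and 314 reads. The KO mean was 18.4 ± 5.89 RPM (SD, n = 3), the Het mean 44.2 ± 6.39 RPM (SD, n = 2) and the WT mean 29.2 ± 2.59 RPM (SD, n = 2). The log2 difference within sets was -1.12 ± 0.20 (limma adjusted p = 0.0261). The call was lost under 8 of 14 alternatives, among them centring, voom and leaving out either Het library or KO replicate 3, while the difference stayed between -1.19 and -0.96 (limma adjusted p = 0.0119 to 0.595). Without the set in the fit, KO minus WT for Zan in spermatids was -0.69 (limma adjusted p = 0.258).

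None of the other 38 members passed within sets in spermatids. Cd46, a complement regulator of the inner acrosomal membrane in mouse, had -1.14 and did not pass (limma adjusted p = 0.169). It was at 1.72, 4.75 and 1.92 RPM in KO spermatids, 10.1 and 9.24 RPM in Het, against 3.62 and 4.56 RPM in WT. KO overlapped WT there. Tmem95 had -0.55 (limma adjusted p = 0.249), at 47.6, 56.5 and 33.9 RPM in KO spermatids, 42.6 and 58.0 RPM in Het, against 103 and 79.4 RPM in WT. At the other end were Pick1 with 0.40, Acr with 0.29 and Zp3r with 0.25. Acr was at 312, 288 and 274 RPM in KO spermatids, 257 and 225 RPM in Het, against 224 and 261 RPM in WT, and every KO library was above every other library without passing (limma adjusted p = 0.259). The fusion genes Izumo1, Dcst1, Dcst2 and Spaca6 had differences from -0.25 to 0.03, each with an SE of 0.17 to 0.31. Spam1 was at 93.9, 95.0 and 95.3 RPM in KO spermatids, 89.0 and 93.0 RPM in Het, against 99.0 and 87.1 RPM in WT, a difference of 0.04 ± 0.14.

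**Figure D4:**
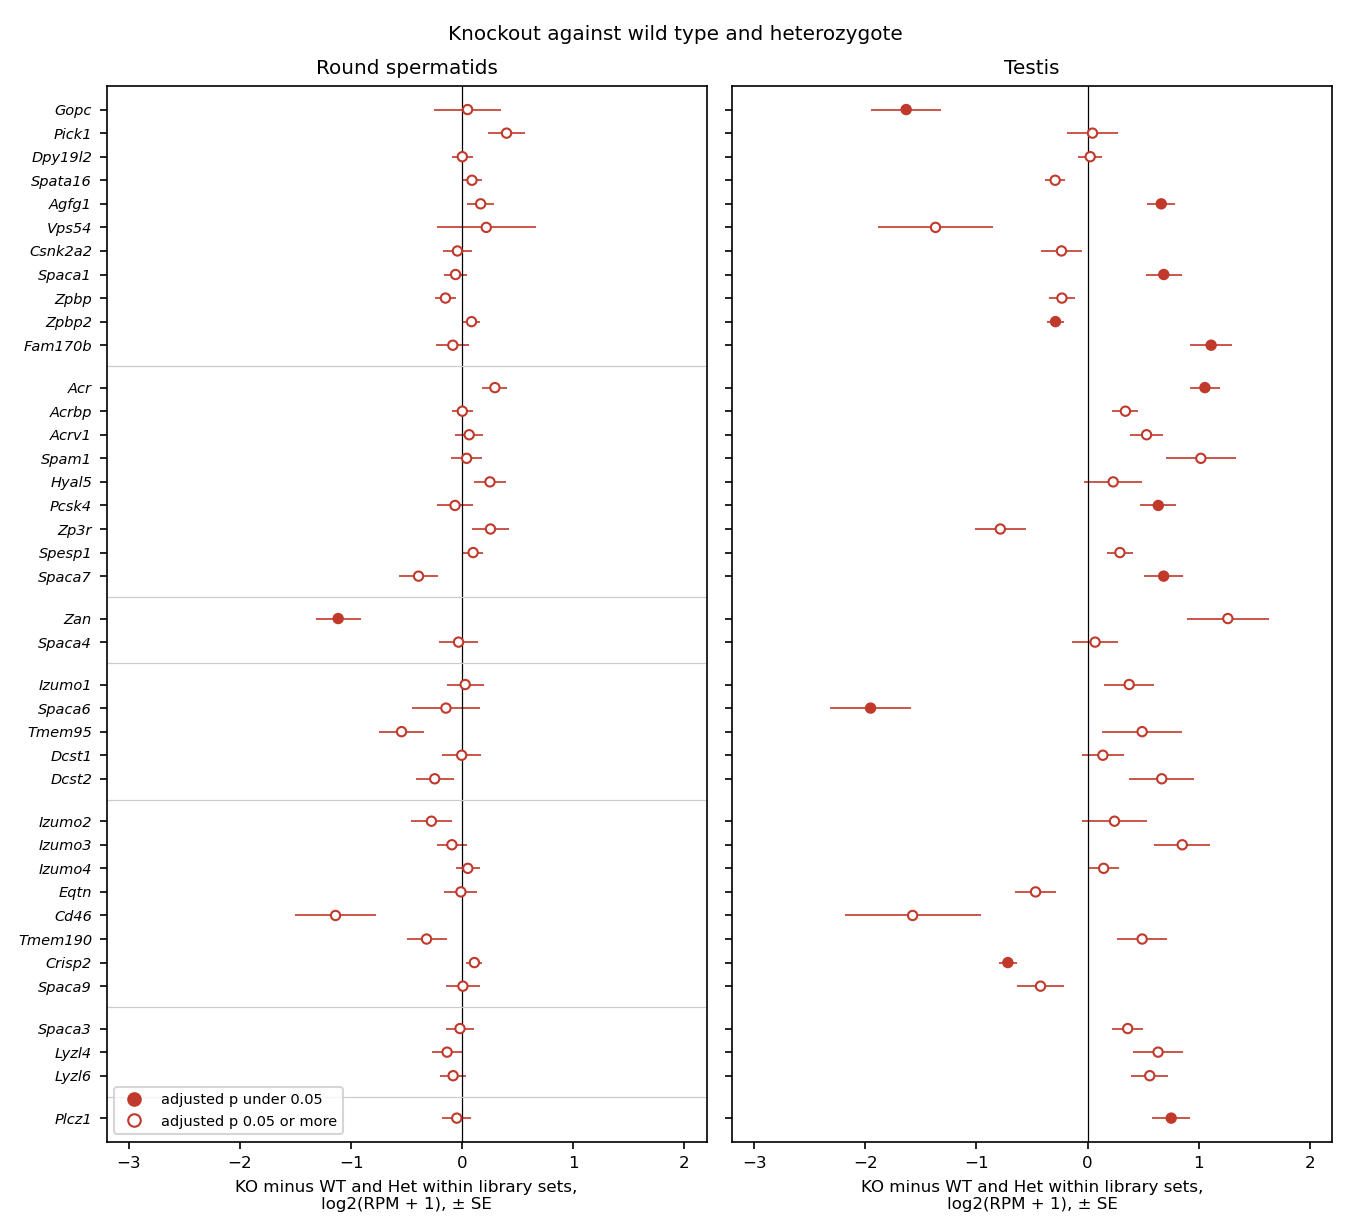
Log2(RPM + 1) difference of KO minus WT and Het within library sets for each member, with its standard error, in spermatids (left) and testis (right). Filled points passed an adjusted p under 0.05: Zan at -1.12 in spermatids, and 11 members between -1.95 and 1.11 in testis, where the comparison inside set 1 rests on KO replicate 1.

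In testis 11 of the 39 members passed within sets, 7 higher and 4 lower in KO, against 19.5% of 18570 genes (9.35% higher and 10.1% lower). Acr was at 326, 165 and 150 RPM in KO testis, 138 RPM in Het, against 80.5 and 90.8 RPM in WT (log2 difference 1.06). Fam170b was at 98.3, 44.0 and 54.2 RPM in KO testis, 35.7 RPM in Het, against 27.7 and 28.1 RPM in WT (1.11). Plcz1 was at 83.5, 108 and 92.8 RPM in KO testis, 103 RPM in Het, against 26.5 and 29.6 RPM in WT (0.75). The first 2 were higher in every KO library than in Het and WT, and Plcz1 overlapped Het. Agfg1 was at 239, 146 and 155 RPM in KO testis, 135 RPM in Het, against 103 and 109 RPM in WT (0.66). Spaca1 was at 90.3, 184 and 147 RPM in KO testis, 153 RPM in Het, against 37.1 and 36.4 RPM in WT (0.69). Pcsk4, a proprotein convertase of sperm, was at 83.1, 104 and 89.7 RPM in KO testis, 72.4 RPM in Het, against 46.0 and 44.8 RPM in WT (0.64). Spaca1 also overlapped Het, whereas Agfg1 and Pcsk4 did not. Spaca7 was at 180, 52.6 and 51.2 RPM in KO testis, 58.8 RPM in Het, against 69.3 and 53.5 RPM in WT (0.68), so that only KO replicate 1 lay above Het and WT.

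Of the 4 that fell within sets in testis, Gopc was at 0, 38.6 and 34.1 RPM in KO testis, 45.6 RPM in Het, against 8.84 and 5.005 RPM in WT (-1.63). Spaca6 was at 0, 16.1 and 18.8 RPM in KO testis, 23.03 RPM in Het, against 15.2 and 7.10 RPM in WT (-1.95). Both rest on KO replicate 1, which had no read of either gene at the lowest total of all libraries, and 3 reads there would be 0.407 RPM, for counting error only. Crisp2 fell by 0.72 on the log2 scale, with the values given above. Zpbp2 was at 739, 547 and 543 RPM in KO testis, 605 RPM in Het, against 985 and 1002 RPM in WT (-0.29). Testis KO replicate 1 had no read for 15044 of the 30479 genes and lay alone in its set and genotype. The same holds for the Het library, so neither adds to the spread in this fit. The p-values assume that both vary like the WT libraries and KO replicates 2 and 3. The stromal and peritubular myoid markers of KO replicate 1 were at 313 RPM, against 40.9 to 57.5 RPM in WT. The part of these in the differences was not tested. In each of the 11 genes the difference of KO replicate 1 from WT was larger than that of KO replicates 2 and 3 from Het. It was 1.54 against -0.04 for Plcz1, 1.27 against 0.10 for Spaca1, 1.92 against 0.19 for Acr and -1.25 against -0.19 for Crisp2. Leaving out KO replicate 2 or KO replicate 3 leaves spread only between the WT libraries. Over all genes, the lowest count on leaving out 1 library was 0. All 11 calls were lost on leaving out KO replicate 2 or KO replicate 3, whereas 26 members passed without WT replicate 1, against 39.8% of all genes, and 29 without WT replicate 2, against 40.6%.

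The KO minus WT difference was lastly compared between cell types, since WT and KO libraries were measured in both. In 4 of the 39 members it was lower in spermatids than in testis, and in 0 it was higher, against 1.84% and 0.294% of 20085 genes (2.13% in either direction). Zan, Spam1, Spaca1 and Plcz1 differed by -3.40, -2.52, -2.01 and -1.79 (limma adjusted p = 0.0329, 0.0281, 0.0321 and 0.0332). In spermatids Spaca1 was at 444, 417 and 357 RPM in KO, 388 and 433 RPM in Het, against 451 and 458 RPM in WT. Plcz1 was at 285, 249 and 196 RPM in KO spermatids, 235 and 303 RPM in Het, against 277 and 229.9 RPM in WT. In spermatids KO overlapped WT for Plcz1 and Spam1, whereas every KO library lay below both WT libraries for Spaca1 and Zan. In testis every KO library, and the Het library, was above both WT libraries for all 4 genes. Of all 18570 genes tested in testis, 12608 had a KO minus WT difference above 0. The median of all genes was -0.48 in the comparison between cell types. With centred libraries all 4 calls were lost (limma adjusted p = 0.212 to 0.497). The values were then -2.57 for Zan, -1.70 for Spam1, -1.19 for Spaca1 and -0.97 for Plcz1. The count also rested on single libraries: it was 16 without testis KO replicate 1 (31.1% of all genes), 1 without testis WT replicate 2 or testis KO replicate 3, and 0 without any 1 of the other 7 libraries.

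**Figure D5:**
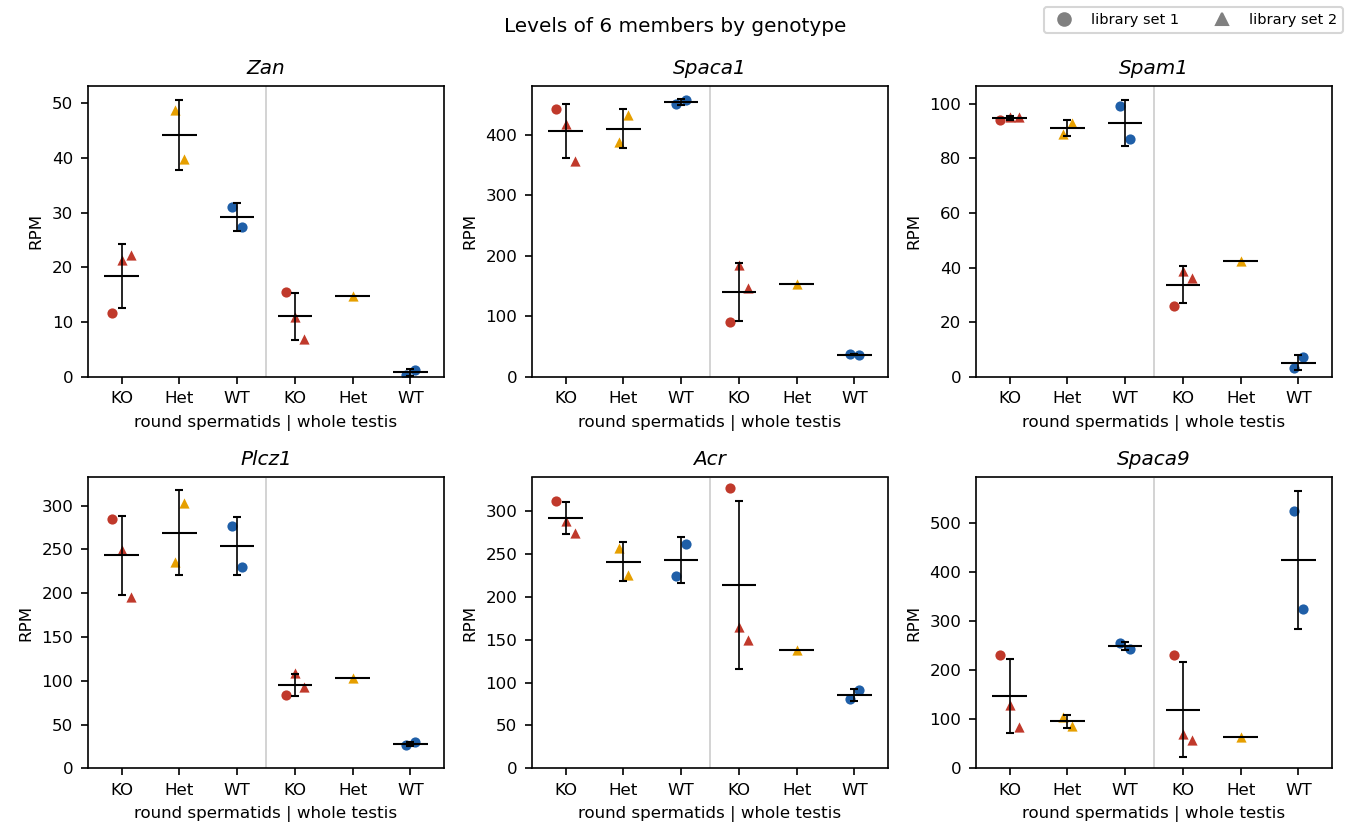
Levels of 6 members in RPM in KO, Het and WT libraries of round spermatids (left of the grey line) and testis (right). Each point is a library, circles for set 1 and triangles for set 2, and lines give the mean and bars the SD where a group has more than 1 library; Zan is lowest in KO among spermatids, and the WT testis libraries are the lowest for Zan, Spaca1, Spam1, Plcz1 and Acr and the highest for Spaca9.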

How the data were processed

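RNA was measured by Smart-seq2 in 7 round spermatid and 6 testis libraries. The authors deposited 1 table of log2 RPM values for 30479 genes; per the submitters' processing notes, the tools were HISAT2 2.1.0 with the mm10 build, Trim Galore 0.6.6 and FastQC 0.11.8, while for the counting program and annotation the sources used here give none. The deposited log2 values could be turned back into reads, where 0.9 stood for no read: per library, 99.7% to 100.0% of values lay within 0.01 of a whole number. Values were turned back into RPM with such genes at 0, and genes that reached 1 RPM in 2 or more of the libraries fitted were analysed as log2(RPM + 1) with limma 3.58.1 in R 4.3.3 (lmFit and eBayes with trend, two-sided, Benjamini-Hochberg over all genes tested, threshold 0.05). Each cell type was fitted with its 3 genotypes; comparisons across cell types used all 13 libraries in 6 groups. The comparison within sets added the set as a covariate, so that KO replicate 1 is set against WT and KO replicates 2 and 3 against Het. A library alone in its set and genotype adds nothing to the spread there. This applies to KO replicate 1 in both cell types and to the Het library in testis. As the deposited unit is not a count, recovered reads were also fitted with voom as an alternative; the others were a pseudocount of 0.1 RPM, dropping the filter, a mean filter of 5 RPM, centred libraries, library quality weights, a replicate block and leaving out each library; KO replicate 1 alone and the set 2 comparison were added after seeing the data. The members, lists and library sets were chosen with earlier results of these data known. Values per library are given for the 3 members highest per kilobase in WT spermatids, the 3 largest differences in each direction, and each member past a threshold. Lengths came from GENCODE M21 (GRCm38), in which 38 of the 39 members had the deposited coordinates. Same-numbered KO spermatid and KO testis libraries deviated together from their group means (correlations 0.504, 0.283 and 0.403), but so did differently numbered replicates 2 and 3 (0.345 and 0.266), so number and library set cannot be told apart; the replicate block lost no call in the difference between cell types. The fits were also run on simulated counts without library sets, which checks the code and not how the fits handle the sets. A gene with no read could be present at up to 0.143 to 0.407 RPM (3 reads), which covers counting error only; reads without molecular identifiers are not independent molecules.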

Additional observations from a re-analysis of the deposited data

Results flagged for a closer look

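The KO minus WT difference of 4 members differed between cell types by a test of the difference itself. On the log2(RPM + 1) scale it was lower in spermatids than in testis in each, with values of -3.40 for Zan, -2.52 for Spam1, -2.01 for Spaca1 and -1.79 for Plcz1 (limma adjusted p = 0.0329, 0.0281, 0.0321 and 0.0332). All 4 calls were lost with centred libraries (limma adjusted p = 0.212 to 0.497), where Plcz1 was at -0.97, and the median of all genes was itself -0.48. The count was 0 on leaving out any 1 of 7 of the 10 libraries. In all 4 genes each KO testis library was above both WT testis libraries. So was the Het testis library, at 14.7 RPM for Zan, 42.2 for Spam1, 153 for Spaca1 and 103 for Plcz1. Of all 18570 genes tested in testis, 12608 had a KO minus WT difference above 0. KO replicates 2 and 3 belong to the set with more Sertoli, stromal and meiotic spermatocyte marker RNA. Whether that set difference has a part in the result was not tested.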

How the results depend on the processing

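Counts of genes and members past an adjusted p of 0.05 changed with the following settings. KO minus WT in spermatids: 4 genes with centred libraries; 5706 genes and 15 members with library quality weights; 89 genes with the set as a covariate; 74 genes with KO replicate 1 alone. KO minus WT in testis: 12535 genes and 27 members with quality weights, 6992 and 21 with the set as a covariate, 4153 and 14 in the fit of all libraries, 3455 and 12 with KO replicate 1 alone. Het minus WT in spermatids: 440 genes with centring, 4815 genes and 14 members with quality weights. Het minus WT in testis: 10636 genes and 22 members with quality weights, 2912 and 10 in the fit of all libraries. KO within sets in spermatids: 35 genes at the pseudocount of 0.1 RPM, 193 at a mean of 5 RPM, 118 with quality weights, 0 genes and 0 members with no filter or no set covariate, and 0 members with centring or voom. KO within sets in testis: 0 genes and 0 members with no filter or no set covariate, 1233 genes and 4 members with voom. There were also 17 members at a mean of 5 RPM and 21 members with quality weights. No share of all genes is given for either count, so neither can be read as a result about the members. Spermatids minus testis in WT: 1182 genes and 8 members with centring, 6221 genes with quality weights, 0 and 0 in Het libraries, 474 and 12 in KO libraries, 5954 genes in WT libraries alone, 6993 and 31 in set 2. Difference between cell types: 849 genes at a mean of 5 RPM, 0 and 0 with centring, 6946 and 19 with quality weights, 5275 and 21 with the set as a covariate.

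Leaving out 1 library in turn gave 0 to 5514 genes and 0 to 16 members for KO minus WT in spermatids, 0 to 11976 and 0 to 25 in testis, and 0 and 0 for Het minus WT. It gave 0 to 125 genes and 0 to 2 members within sets in spermatids, 0 to 7389 and 0 to 29 in testis, 670 to 1161 and 9 to 13 for spermatids minus testis, and 0 to 6211 and 0 to 16 for the difference between cell types. Fits within sets without testis KO replicate 1 or Het replicate 1, or without spermatid KO replicate 1, could not be made, nor Het minus WT without the Het testis library.

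Replicate numbers paired no KO and WT libraries (correlations of 0.019 and 0.003 in testis, 0.046 and 0.017 in spermatids). The replicate block gave 152 genes for KO minus WT in testis, 1127 genes and 2 members for Het minus WT in testis, 1589 and 10 in spermatids, and 10 genes and 0 members within sets in spermatids.

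Reversed values were -2.94 for Gopc (set covariate, and KO replicate 1 alone) and -1.27 for Zp3r (set covariate) in KO minus WT testis, 0.80 for Crisp2 in set 2 spermatids minus testis, and 1.80 for Zp3r in the difference between cell types (set covariate). The cause was not tested.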
